A study of Rattus norvegicus with 6 samples.

Results

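The miR-29 family was examined in small RNA libraries of cultured rat cortical neurons. Its members were taken by name from the count files as rno-miR-29a-3p, rno-miR-29a-5p, rno-miR-29b-3p, rno-miR-29c-3p and rno-miR-29c-5p, which are 5 of the 649 mature miRNAs listed. The cultures came from Sprague-Dawley rat embryos at embryonic day 18 and were stimulated at 7 days in vitro (DIV). The 3 BDNF samples received 100 ng/ml brain-derived neurotrophic factor for 20 min, and the 3 control samples received the vehicle, 0.1% BSA, for the same time. Both conditions are numbered as replicates 1 to 3. According to the study's methods, all cortical cultures were also given fluorodeoxyuridine and uridine to stop the division of non-neuronal cells, and the embryos were of both sexes. All cultures had the same age, so a change of these miRNAs with maturation could not be examined here.

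A miRNA precursor is cut by Dicer into a short duplex with a strand from its 5′ arm (5p) and a strand from its 3′ arm (3p). One strand is usually kept in Argonaute, where the seed near its 5′ end pairs with target mRNAs. The 3p strands of the miR-29 family share one seed and are known as the active strands. Their levels are known to rise as the brain matures after birth. Their known targets include mRNAs of pro-apoptotic Bcl-2 relatives, of collagens and other matrix proteins, and of the DNA methyltransferase Dnmt3a. The miRNAs are also found in astrocytes, so that their level in a culture need not come from neurons alone.

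The 3p strands are shown first because they carry the seed that defines the family, with bases 2 to 8 in capitals. All 5 members matched RefSeq by name, and the sequences are RefSeq's for the rat assembly GRCr8.
miR-29a-3p: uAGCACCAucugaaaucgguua
miR-29b-3p: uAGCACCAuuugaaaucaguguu
miR-29c-3p: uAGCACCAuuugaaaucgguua
The 5p strands are shown with the same bases in capitals, because their seeds differ from each other and from that of the 3p strands. MiR-29b-5p is no member by the naming rule and is included only as the opposite arm of miR-29b-3p.
miR-29a-5p: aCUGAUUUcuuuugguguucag
miR-29b-5p: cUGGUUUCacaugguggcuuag
miR-29c-5p: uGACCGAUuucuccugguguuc
Among the 583 listed miRNAs with a RefSeq sequence, the seed AGCACCA was found in 3, which were the 3p members. Each of the 5p seeds occurred in 1 listed miRNA only.

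The family comes from 4 hairpin genes in a pair of clusters. In GRCr8 coordinates, Mir29a (chr4:60617955-60618042) and Mir29b1 (chr4:60618334-60618414) lie on the minus strand, 291 bases apart. Mir29b2 (chr13:109098831-109098911) and Mir29c (chr13:109099359-109099446) lie on the plus strand, 447 bases apart. Mature miR-29b-3p is identical from Mir29b1 and Mir29b2, so its count sums over both clusters. MiR-29b-5p is the 5p strand of Mir29b2 alone, and the 5p strand of Mir29b1 is not among the listed miRNAs.

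The 3p strands are close enough in sequence for reads to be confused. With positions counted from the 5′ end, miR-29a-3p and miR-29c-3p differ by C10U, the first base being that of miR-29a-3p, and are otherwise the same over 22 bases. MiR-29b-3p and miR-29c-3p differ at 3 of the first 22 bases, by A18G, G21U and U22A. Over the first 19 bases, which remain when 3 bases are trimmed from the 3′ end, A18G is their only difference. The authors' mapping allowed 1 mismatch and such trimming, and how ties were resolved is not given in the sources used here. The part of such reads in the levels of miR-29b-3p and miR-29c-3p was not tested.

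The libraries held between 10374120 and 12533029 counts, and a level of 10 RPM (reads of a miRNA scaled by the library's total count) stood for 103.7 to 125.3 reads. Libraries of one condition all differed beyond counting error, the closest pair giving a chi-square of 146.7 per degree of freedom. What the samples of one replicate number have in common is not given in the labels. The 7 listed neuron-enriched miRNAs were all present, with means from 27.1 RPM for miR-153-3p to 81799 RPM for miR-128-3p. Among them, miR-124-3p was at 4785 to 5879 RPM. MiR-21-5p, which is abundant in glia but not exclusive to them, had 5571 to 7480 RPM, and which cells it came from was not tested. The other 6 listed miRNAs of glia and microglia had means from 0.585 RPM for the microglial miR-142-3p to 24.7 RPM for miR-219a-5p. The latter is close to the mean of the neuron-enriched miR-153-3p. MiR-223-3p, which also belongs to the marker list of glia and microglia, is absent from the counts.

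MiR-29a-3p was by far the most abundant member. Control replicates 1 to 3 held 440, 492 and 544 of its reads, and BDNF replicates 1 to 3 held 561, 472 and 587. This corresponds to 42.1, 39.3 and 52.4 RPM in control and 48.0, 41.9 and 49.3 RPM in BDNF samples. The conditions overlapped, and control replicate 3 was the highest library. With a mean of 45.5 RPM over the 6 libraries, miR-29a-3p was number 235 of the 649 listed miRNAs by level. Its replicates varied with a coefficient of 15.5% for control and 8.60% for BDNF, against medians of 15.1% and 14.7% over all 336 miRNAs that passed the 10 RPM filter of the study. The spread of its RPM over the 6 libraries was 11.3% of the mean, above the 4.40% that counting error gives at a mean of 516 reads.

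The other members were below 10 RPM in every library, so miR-29a-3p was the 1 member that passed the filter. MiR-29b-3p had 4.12, 3.27 and 3.28 RPM in control replicates 1 to 3 and 4.19, 3.90 and 3.44 RPM in the BDNF replicates. MiR-29c-3p had 3.45, 3.99 and 3.18 RPM in control and 3.77, 4.52 and 3.19 RPM in BDNF samples. For both miRNAs the conditions overlapped. They were read 34 to 49 and 33 to 51 times per library, and the spread of their RPM over the 6 libraries, 11.4% and 14.1% of the mean, was no larger than the 15.4% that counting error alone gives at a mean of 42 reads.

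MiR-29c-5p, the opposite strand of miR-29c-3p, had 4.12, 5.35 and 6.36 RPM in control replicates 1 to 3 and 3.77, 2.93 and 6.39 RPM in the BDNF replicates. Both replicate 3 libraries were above all others. Its spread over the libraries was 29.8% of the mean, above the 13.5% that counting error gives at its mean of 54.8 reads. MiR-29a-5p was read 2, 1 and 1 times in control and 2, 2 and 5 times in BDNF libraries. These counts lie near the limit of detection, and the exact 95% Poisson intervals of the lowest and the highest count, 0.0253 to 5.57 and 1.62 to 11.7 reads, overlapped. All such intervals cover counting error only.

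In order of mean RPM over the 6 libraries, miR-29a-3p with 45.5 was followed by miR-29c-5p with 4.82, miR-29b-3p with 3.70, miR-29c-3p with 3.68 and miR-29a-5p with 0.189. The mature strands are 22 or 23 bases long, so that no correction for length was made, but strands can differ in how well they are ligated into a library. The step from miR-29a-3p to the next member and the step down to miR-29a-5p were larger than the spread, without overlap in any library. The 3 members between them overlapped each other and were not separated by their spread.

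**Figure D1:**
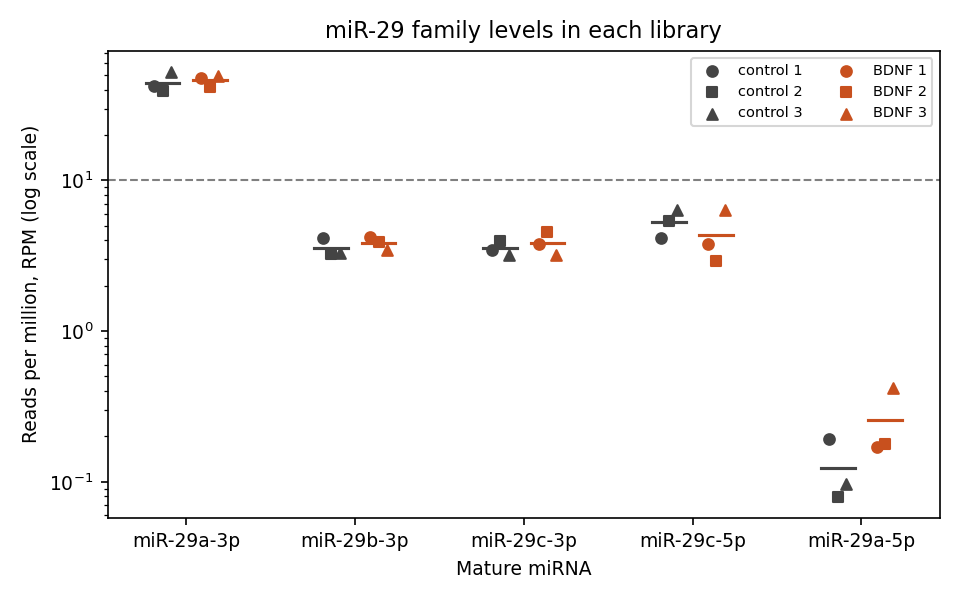
Level of each member in each library in RPM on a log scale, with grey symbols for control, orange symbols for BDNF, one symbol shape per replicate number and bars at the mean of each condition. MiR-29a-3p lies between 39.3 and 52.4 RPM, miR-29b-3p, miR-29c-3p and miR-29c-5p lie below the dashed 10 RPM line of the filter, and miR-29a-5p stays at 0.420 RPM or less.

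**Figure D2:**
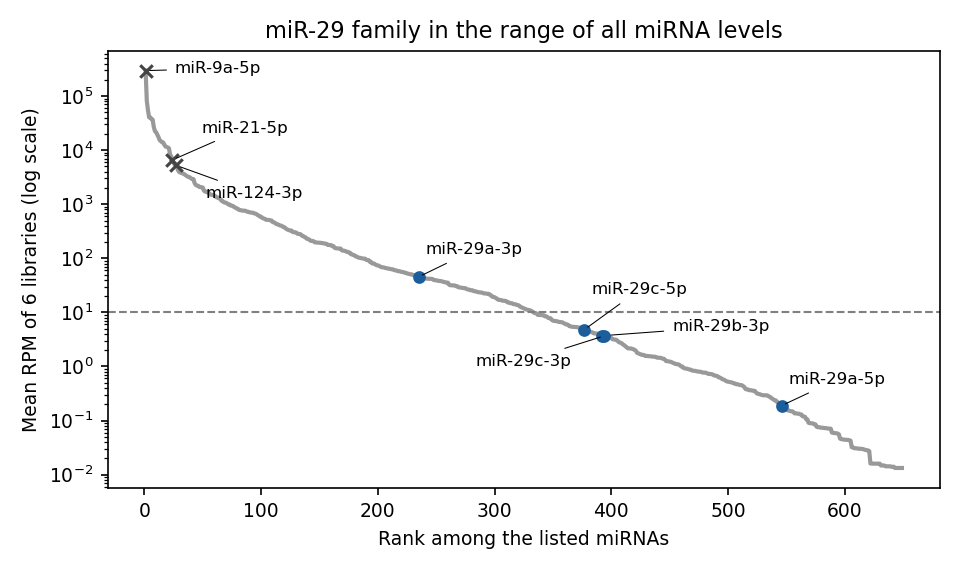
Mean RPM of 6 libraries on a log scale against the rank of each of the 649 listed miRNAs, as a grey line, with family members as blue dots and 3 reference miRNAs as crosses. MiR-29a-3p stands at rank 235, miR-29c-5p, miR-29b-3p and miR-29c-3p at ranks 377 to 394 and miR-29a-5p at rank 546, whereas miR-21-5p and miR-124-3p stand at ranks 24 and 27.

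Because the 3p strands share their seed, their counts were also added up. The sum was 49.7, 46.5 and 58.9 RPM in control replicates 1 to 3 and 56.0, 50.3 and 56.0 RPM in the BDNF replicates. MiR-29a-3p made up 84.8, 84.4 and 89.0% of this sum in control and 85.8, 83.2 and 88.1% in BDNF libraries. It was read 10.2 to 16.0 times as often as miR-29b-3p and 9.25 to 16.5 times as often as miR-29c-3p. MiR-29b-3p and miR-29c-3p were read about equally often, with ratios of 0.820 to 1.19 between them. The sum of the seed family stayed below the level of the neuron-enriched miR-124-3p in every library, and far below that of miR-9a-5p, a miRNA of the neural lineage which alone took up to 33.1% of the counts of a library. The family sum stayed above the level of the neuron-enriched miR-153-3p, which was 19.6 to 40.4 RPM, in every library.

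The share of reads from each arm differed within the family, and loading into Argonaute was not measured. Over the 6 libraries together, miR-29a was read 3096 times as its 3p strand and 13 times as its 5p strand, so that the 5p strand made up 0.418% (exact 95% binomial interval 0.223 to 0.714%). For miR-29c, 329 of 581 reads came from the 5p strand, which is 56.6% (52.5 to 60.7%). For miR-29b, miR-29b-5p gave 433 of 685 reads, which is 63.2% (59.5 to 66.8%), although miR-29b-3p has a further source in Mir29b1. These intervals describe the pooled reads of these libraries and not the spread between samples.

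The difference between miR-29a and miR-29c held in each library. The 5p/3p ratio of miR-29c was 1.19, 1.34 and 2.00 in control replicates 1 to 3 and 1.00, 0.647 and 2.00 in the BDNF replicates. That of miR-29a did not exceed 0.0085. The libraries did not overlap, and the 5p strands of the 2 precursors differ at 3 of 20 aligned bases with an offset of 2 at the 5′ end. Precursors with nearly equal arms were a minority in these neurons. Of the precursor names with both arms at a mean of at least 1 RPM, 18 (13.1%) had a mean log2 5p/3p ratio between -1 and 1. MiR-29b with 0.76 and miR-29c with 0.34 were among these 18. The 5p strand prevailed more strongly in 66 precursors and the 3p strand in 53, and the median size of the log2 ratio was 3.42. MiR-29a was not among the precursors compared, because its 5p strand was below 1 RPM.

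**Figure D3:**
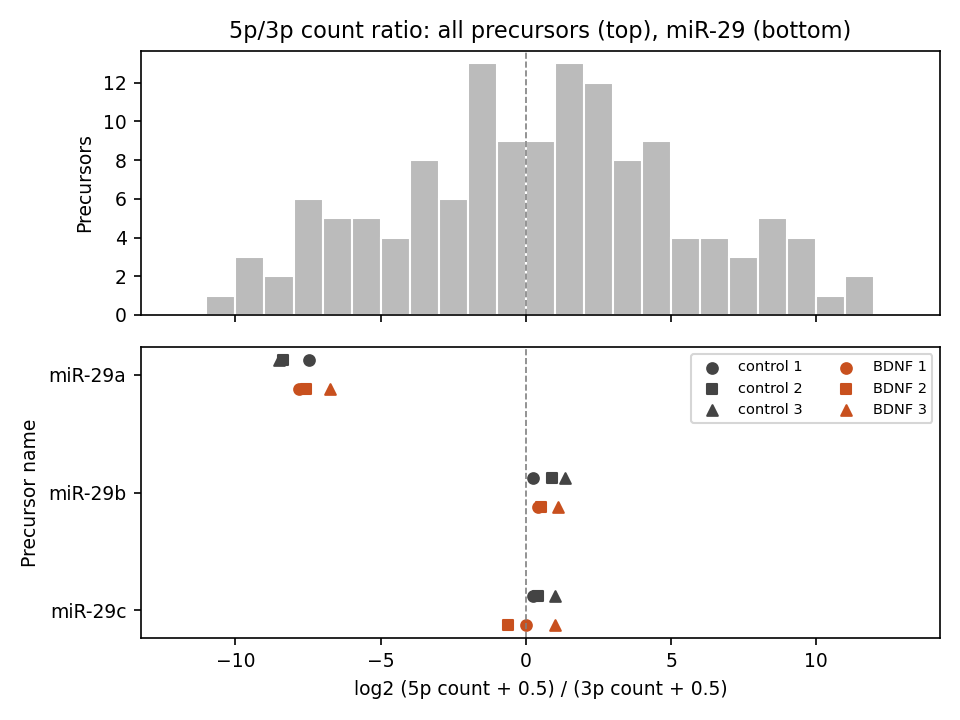
Distribution of the mean log2 5p/3p count ratio of all precursors with both arms at 1 RPM or more (top, bars count precursors) and the log2 ratio of miR-29a, miR-29b and miR-29c in each library (bottom, grey control, orange BDNF, one symbol shape per replicate number). MiR-29a lies between -8.50 and -6.74, whereas miR-29b and miR-29c lie between -0.62 and 1.36, nearer to equal read counts of both arms.

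BDNF is known to change neuronal transcription and translation within minutes to hours, and the study asked whether a short stimulation alters mature miRNA levels. No change of miR-29a-3p was detected. Its level normalised by edgeR's TMM method averaged 44.0 ± 3.9 RPM without BDNF (SD, n = 3) and 46.8 ± 4.5 RPM with BDNF (SD, n = 3). The log2 fold change (BDNF/control) was 0.09 with a standard error of 0.13 in edgeR's quasi-likelihood test over 336 miRNAs. The unadjusted P-value was 0.54 and the Benjamini-Hochberg adjusted P-value 0.999. The 95% confidence interval ran from -0.23 to 0.41, which is 0.851-fold to 1.33-fold. True changes within this interval are compatible with these samples in this fit. The ratio of RPM in the samples with the same replicate number was 1.14, 1.07 and 0.940 in replicates 1 to 3, above 1 in 2 of 3 pairs.

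MiR-29a-3p was not called by either threshold. At an adjusted P-value below 0.05, 0 of the 336 miRNAs tested were called (0%), with the same count in DESeq2 at 12 unadjusted calls, and the smallest adjusted P-value was 0.999 in edgeR. At the unadjusted threshold of 0.05, which the study used, 10 miRNAs (2.98%) were called, miR-29a-3p not among them. Control and BDNF samples of one replicate number had alike deviations from the condition means, and with this number as a block the unadjusted count rose to 69 miRNAs (20.5%), again without miR-29a-3p. Its log2 fold change with the block was 0.09 with a standard error of 0.10.

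The members below the filter were fitted over all 649 listed miRNAs, of which 15 (2.31%) had an unadjusted P-value below 0.05 and 0 (0%) an adjusted one in edgeR's quasi-likelihood test. None of the 5 members was among the 15. MiR-29b-3p had a log2 fold change of 0.15 (95% confidence interval -0.36 to 0.65) and miR-29c-3p one of 0.13 (-0.41 to 0.68). For both, the RPM ratio was above 1 in 3 of 3 pairs with the same replicate number, from 1.02 to 1.19 for miR-29b-3p and from 1.00 to 1.13 for miR-29c-3p. Both intervals contain 0, and a direction was not resolved at this depth. On the ratio of mean normalised RPM, leaving out single samples moved the log2 difference of miR-29b-3p from 0.14 to between 0.03 and 0.27, and that of miR-29c-3p from 0.14 to between -0.01, without BDNF replicate 2, and 0.30. MiR-29c-5p had a log2 fold change of -0.26 (-0.88 to 0.37). Its pair ratios were 0.914, 0.547 and 1.00, with replicate 2 giving the largest difference, and on the ratio of mean normalised RPM its log2 difference went from -0.27 to -0.07 without BDNF replicate 2 and to -0.56 without BDNF replicate 3. MiR-29a-5p had 4 reads in all control libraries together and 9 in all BDNF libraries, too few for a fold change.

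**Figure D4:**
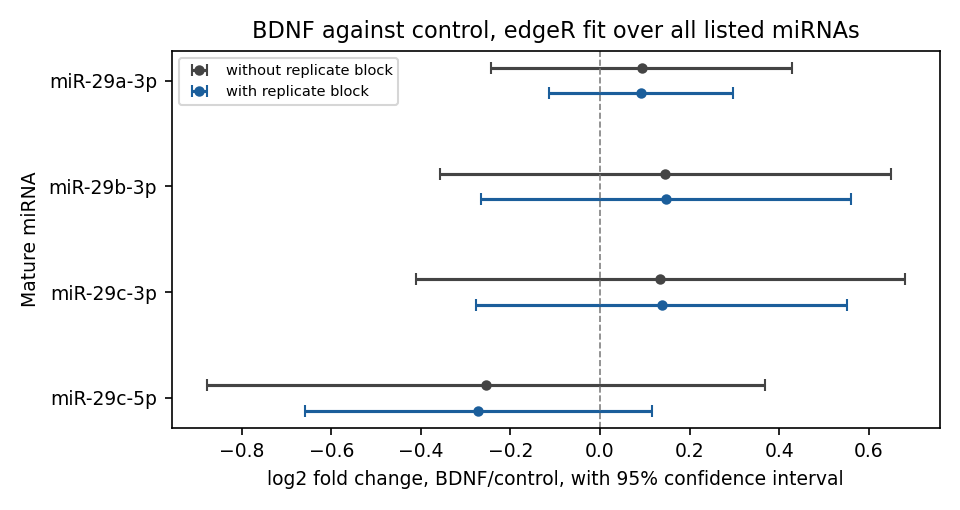
Log2 fold change (BDNF/control) of 4 members with 95% confidence intervals, from edgeR fits over 649 miRNAs without (grey) and with (blue) the replicate number as a block. All intervals contain 0, and the interval of miR-29a-3p, from -0.24 to 0.43 without the block, is the narrowest of the 4. MiR-29a-5p is left out for its low counts.

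The balance between the members was likewise not detectably altered by BDNF. The log2 ratio of miR-29b-3p to miR-29a-3p averaged -3.65 ± 0.33 without and -3.59 ± 0.22 with BDNF (SD, n = 3 each). That of miR-29c-3p to miR-29a-3p was -3.65 ± 0.37 and -3.61 ± 0.37 (SD, n = 3 each). Two-sided exact permutation tests gave P = 0.9 and P = 0.8, and P = 1 for miR-29b-3p against miR-29c-3p, with an adjusted P-value of 1 for all 3 ratios. With 3 samples against 3, such a test cannot give less than 0.1.

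The 5p/3p read ratios were compared as well, since the study follows the Dicer co-factor TRBP. It describes earlier results on TRBP in strand selection as conflicting. From its small RNA sequencing, the study itself reported no change of 5p to 3p ratios after BDNF. The log2 5p/3p ratio of miR-29c averaged 0.55 ± 0.39 without and 0.12 ± 0.81 with BDNF (SD, n = 3 each). In limma, the difference was -0.43 (95% confidence interval -1.34 to 0.47) and the adjusted P-value 0.97. For miR-29b, limma gave a difference of -0.16 (-0.89 to 0.58) and likewise an adjusted P-value of 0.97. At the unadjusted threshold 6 precursors (4.38%) were called, neither of them from this family, and 0 (0%) passed after adjustment. With the replicate number as a block, 17 precursors (12.4%) passed the unadjusted threshold, again none from this family. The block narrowed the interval of miR-29c to -0.99 to 0.13, with an adjusted limma P-value of 0.51. That of miR-29b became -0.64 to 0.33, with an adjusted P-value of 0.79. MiR-29a was fitted only without the filter on the arms and rested on 1 to 5 reads of its 5p strand per library.

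Many miRNAs differed between the replicate numbers, but miR-29a-3p was not among those called. With condition in the fit, edgeR's quasi-likelihood test called 162 of the 336 miRNAs (48.2%) between replicate numbers at an adjusted P-value below 0.05. For miR-29a-3p, the fitted levels of the 3 numbers spanned 0.16 on the log2 scale, with an adjusted P-value of 0.45. With library size alone in place of TMM, they spanned 0.33 with an adjusted P-value of 0.11 in the same test. In the fit over all 649 miRNAs, where 197 (30.4%) were called, none of the 5 members was called. The smallest adjusted P-values of members were 0.12 for miR-29c-5p, whose levels spanned 0.55, and 0.22 for miR-29c-3p, whose levels spanned 0.57. MiR-29c-5p was highest in both replicate 3 libraries and miR-29c-3p was at its lowest in both, at 3.18 and 3.19 RPM.

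The 5p/3p ratios of miR-29b and miR-29c were accordingly highest in the replicate 3 libraries, and this comparison was added after the values were seen. For miR-29b the ratio was 2.59 and 2.15 in replicate 3 of control and BDNF, against 1.19 to 1.88 in the other libraries. For miR-29c it was 2.00 in both, against 0.647 to 1.34. In limma with condition in the fit, the replicate number gave unadjusted P-values of 0.023 for miR-29b and 0.014 for miR-29c, with adjusted P-values of 0.11 and 0.082. Of all precursors tested, 38 (27.7%) passed the unadjusted and 13 (9.49%) the adjusted threshold. With a pseudocount of 5 in place of 0.5, the adjusted limma P-value of miR-29c was 0.045 and that of miR-29b 0.082. The shares of all precursors given above hold for the pseudocount of 0.5 only.

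Markers of cell types were compared by replicate number as well, with the 48.2% of all tested miRNAs called between the numbers as background. The summed RPM of 7 neuron-enriched miRNAs was 86518 to 89797 in the replicate 1 libraries and 96386 to 106485 in those of replicate 3. This sum was mostly miR-128-3p, with a mean of 81799 RPM, and its members did not all stand in the same order. The sums in this paragraph are RPM without TMM, whereas the calls rest on TMM. After TMM, miR-128-3p was at 78771 and 73417 RPM in control replicates 1 and 3. In BDNF replicates 1 and 3 it was then at 81604 and 81928 RPM. The rise of this miRNA from replicate 1 to 3 was therefore not kept in control after TMM. As examples chosen after their values were seen, miR-129-5p was at 2796 and 2616 RPM in replicate 1 of control and BDNF and at 7776 and 8693 RPM in replicate 3, whereas miR-153-3p was at 40.4 and 31.1 RPM in replicate 1 and at 19.6 and 19.8 RPM in replicate 3. The sum of 7 miRNAs of glia and microglia, nearly all of it miR-21-5p, was 7334 to 7532 RPM in replicate 1 and 5621 to 5656 RPM in replicate 3. The 9 miRNAs of the miR-17~92 and miR-106b~25 clusters, which are abundant in proliferating progenitors, summed to 14558 to 15357 RPM in replicate 1 and 17725 to 19337 RPM in replicate 3. The 6 vascular and blood miRNAs summed to 182 to 188 RPM in replicate 1 and 125 to 130 RPM in replicate 2, with both replicate 3 libraries between these ranges. Between replicate numbers, 3 of 7 tested neuron-enriched, 2 of 3 glial, 2 of 9 progenitor and 2 of 2 vascular and blood miRNAs were called, and 0 of each between conditions. With so few tested members, these counts are not read as differing from the background. In bulk samples, fewer cells of a type and less RNA per cell cannot be told apart, and the part of these markers in the miR-29 values was not tested.

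The profile of the summed 3p strands over the libraries was compared with those of other miRNAs. After centring on its mean, the log2 normalised sum of the 3p strands stayed between -0.11 and 0.19 over the 6 libraries. Among the 335 other miRNAs that passed the filter, the nearest profile was that of miR-221-3p, with a mean absolute difference of 0.056 on this log2 scale. It was followed by miR-412-5p with 0.057, miR-582-3p with 0.059, miR-370-5p with 0.060 and miR-674-3p with 0.062, whereas the median of all was 0.17. MiR-221-3p shared with the family its highest value in BDNF replicate 1, at 0.20 for miR-221-3p and 0.19 for the family. The 6 points share 3 replicate numbers, and the likeness is a description.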

How the data were processed

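Small RNA was sequenced from 3 control and 3 BDNF samples, each a biological replicate according to the study's methods. After removal of adapter, low-quality and very short reads, the authors used Miraligner to map the rest to rat miRBase entries (1 mismatch, trimming or addition of up to 3 bases) and deposited raw counts for 649 mature miRNAs. The tool versions are not given in the sources used here. The age of 7 DIV is that of the labels; a legend of the study gives another day.

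RPM were computed from the column sums. Counts were tested with edgeR 4.0.16 (R 4.3.3; TMM, quasi-likelihood) for the 336 miRNAs that averaged 10 RPM or more in either condition, with condition as the only term because the methods state no block. The standard error is the log2 fold change divided by the square root of F. The 5p/3p ratios were tested with limma 3.58.1 on log2 ratios with a pseudocount of 0.5. Control and BDNF samples that carry one replicate number in their labels showed alike deviations from the condition means (r = 0.81, 0.49 and 0.89 across miRNAs). The numbers were therefore taken to pair the samples in the pair ratios and in the block. The main tests between conditions, with their intervals, and the permutation tests leave this pairing out. In edgeR, the smallest adjusted P-value between conditions was 0.999 without the block and 0.12 with it. Alternatives were the block, DESeq2 1.42.0, library size alone, no filter, other pseudocounts and leaving out single samples. P-values set each difference against the spread between these samples, which in fits without the block includes differences between replicate numbers. The tests were checked on simulated data. Of the tested miRNAs changed 2-fold, 100% were recovered between conditions (345 tested, 3 false calls) and 99% between replicate numbers (338 tested, 1 false call). For the test between conditions, the simulated libraries had no differences between replicate numbers, unlike these data. That recovery rate therefore does not carry over to the unblocked fit of these data. Changes as small as those seen here were not simulated. The named miRNAs are the members, the 5 nearest profiles and marker miRNAs from fixed lists. The members, lists and tests were chosen with earlier results of these data known.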

Additional observations from a re-analysis of the deposited data

How the results depend on the processing

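The log2 fold change of miR-29a-3p stayed above 0 and uncalled under every alternative run. It was 0.09 with the replicate block, 0.06 with library size alone, 0.10 in DESeq2, 0.09 without the filter and 0.00 to 0.17 when single samples were left out, being lowest without BDNF replicate 1. The block changed no call of a member. No member that passed the filter was called in any alternative, between conditions or between replicate numbers. Over all tested miRNAs, the count at an unadjusted P-value below 0.05 was 10, against 69 with the replicate block, 6 with library size alone and 3 to 32 without single samples, from control replicate 2 to control replicate 1. The 162 miRNAs called between replicate numbers became 66 without control replicate 3 and also 66 without BDNF replicate 3. Directions of the small differences between members depended on single samples. The change in log2 ratio of miR-29b-3p to miR-29a-3p, 0.05, ran from -0.12 to 0.20, being below 0 without control replicate 3 or BDNF replicate 2. That of miR-29c-3p to miR-29a-3p, 0.04, ran from -0.16 to 0.22, being below 0 without the same samples. That of miR-29b-3p to miR-29c-3p, 0.01, ran from -0.13 to 0.14, being below 0 without control replicate 2, BDNF replicate 1 or BDNF replicate 3. The change in the 5p/3p ratio of miR-29b, -0.16, ran from -0.45 to 0.11, being above 0 without control replicate 3, and that of miR-29c from -0.86 to -0.06, being smallest without BDNF replicate 2. With the replicate block it was -0.43 for miR-29c. Between replicate numbers, the adjusted limma P-value for the 5p/3p ratio of miR-29c was 0.033 without control replicate 2, and 0.15 to 0.44 without any other sample. Depth limits the members other than miR-29a-3p, which had 1 to 76 reads per library.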
